A study of Mus musculus with 12 samples.

Results

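The 10 genes of the type I interferon antiviral programme described here in the mouse colon are Ifit1, Ifit2, Ifit3, Oasl1, Oasl2, Oas2, Rsad2, Isg15, Usp18 and Irf7. They were picked by symbol, as the probe sets annotated with exactly 1 of these names, and all 10 were found, each with 1 probe set, among 21314 genes measured. Whole colons of 12 mice, aged 6 to 8 weeks and kept in a conventional facility screened for common mouse pathogens, were each hybridised to 1 Affymetrix array. The 4 groups of 3 mice were Parp1-/- mice that drank water with dextran sulfate sodium (DSS) at 4% over 7 days, Parp1-/- mice on plain water, wild-type mice on the same DSS schedule and wild-type mice on plain water. DSS is a sulfated polysaccharide that injures the colon lining, and Parp1 encodes a poly(ADP-ribose) polymerase that is activated by DNA breaks. The sources used here do not say how the Parp1-/- allele was built or on which strain. The comparisons ask how these genes differed with DSS in each genotype, and with genotype in each treatment. Values are on a scale taken as log2, and the 12 values of a probe set have a median of 0. A gene can therefore be set against itself across arrays, while levels of different genes cannot be ranked.

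Type I interferons are cytokines released when cells sense foreign or misplaced nucleic acids. They bind the receptor chains Ifnar1 and Ifnar2, and the kinases Jak1 and Tyk2 then activate transcription factors that include Stat2, which joins Irf9 on DNA elements in the promoters of target genes. The products of those targets block viral RNA and protein synthesis, and some of them, such as Usp18, dampen the receptor. In the gut, epithelial and myeloid cells respond to interferons during infection and during injury of the mucosa.

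The element bound by interferon regulatory factors, Irf9 among them, has as its core GAAA, any 2 bases, and GAAA again. This core was searched on both strands in RefSeq promoters of build GRCm38.p6, from 250 bases before to 50 after each gene start. Of the 10 genes, 8 had a promoter in the table, and the core was present in 4 of them, Ifit1, Ifit3, Rsad2 and Isg15, against 3.44% of all 32851 promoters of the same length. Bases that match the core on either strand are in capitals in the 200 bases before each start, printed 5′ to 3′ on the gene's strand for those 4 genes and for Oasl2, which had the largest DSS difference of the 10 in Parp1-/- mice and no match. The Ifit1 stretch lies at chr19:34640689-34640888 on the plus strand, Ifit3 at chr19:34583329-34583528 on the plus strand, Rsad2 at chr12:26456453-26456652 on the minus strand, Isg15 at chr4:156200819-156201018 on the minus strand and Oasl2 at chr5:114896734-114896933 on the plus strand.
Ifit1: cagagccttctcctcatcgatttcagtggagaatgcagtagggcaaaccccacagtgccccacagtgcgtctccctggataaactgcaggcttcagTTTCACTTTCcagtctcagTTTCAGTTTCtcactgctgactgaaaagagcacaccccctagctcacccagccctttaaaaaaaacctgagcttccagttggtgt
Ifit3: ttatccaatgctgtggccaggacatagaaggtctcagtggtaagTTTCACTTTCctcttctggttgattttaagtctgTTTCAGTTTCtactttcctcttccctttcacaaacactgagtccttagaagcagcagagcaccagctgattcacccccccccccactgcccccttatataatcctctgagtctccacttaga
Rsad2: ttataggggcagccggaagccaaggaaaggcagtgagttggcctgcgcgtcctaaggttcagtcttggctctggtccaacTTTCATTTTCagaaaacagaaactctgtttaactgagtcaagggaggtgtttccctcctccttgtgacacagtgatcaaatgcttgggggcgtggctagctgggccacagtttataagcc
Isg15: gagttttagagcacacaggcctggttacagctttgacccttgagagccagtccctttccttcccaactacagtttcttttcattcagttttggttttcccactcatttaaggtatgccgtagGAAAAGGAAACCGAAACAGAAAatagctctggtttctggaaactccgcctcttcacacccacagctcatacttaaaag
Oasl2: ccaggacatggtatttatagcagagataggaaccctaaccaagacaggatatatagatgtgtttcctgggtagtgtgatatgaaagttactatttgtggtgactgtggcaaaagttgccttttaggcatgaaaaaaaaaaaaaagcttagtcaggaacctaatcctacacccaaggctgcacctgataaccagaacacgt

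Ifit1 and Ifit3 carried the same 2 matched strings, TTTCACTTTC and TTTCAGTTTC, in the same order. In Ifit1 the first began at base -104 and the second at base -85 from the start, and in Ifit3 they began at bases -156 and -122. Isg15 had 3 matches that overlap into 1 run from base -78 to base -57, and Rsad2 had 1 match from base -120 to base -111. A second motif, TTCNNNGAA, which Stat dimers bind, was found in Ifit2 alone among the 8, from base -241 to base -233, against 8.3% of all promoters. The 2 motifs share no fixed overlap. Ifit2, Oasl1, Oasl2 and Irf7 had no match to the core, which says only that these letters are not in this window.

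Before the results, 4 arrays have to be named. The 3 wild-type water arrays and wild-type DSS 1 stood apart: the mean of 16 housekeeping genes was between -1.82 and -1.07 on them, against -0.00 to 0.39 on the other 8, and the spread over all probe sets was 0.67 to 0.87 (SD), against 0.26 to 0.39. Markers of smooth muscle averaged 3.01 to 3.08 on Parp1-/- water 2 and 3 and on Parp1-/- DSS 1, and -0.53 to 0.07 on the other 9 arrays. Parp1 itself stood at -0.22, -0.09 and 0.03 in Parp1-/- DSS colons, -0.03, -0.08 and -0.01 in Parp1-/- water colons, 0.01, 0.51 and 0.77 in wild-type DSS colons and -0.41, 1.15 and 0.53 in wild-type water colons. The groups overlapped, and wild-type water 1 lay below all 6 Parp1-/- arrays. Where the Parp1 probes lie relative to the altered sequence is not given, so this is a weak check of the labels. Epithelial and muscle markers, as defining markers of the colon wall, were measured for 12 of 12 and 10 of 10 listed genes, though centred values cannot show whether a marker was absent. The array labelled wild-type water 1 is used as labelled.

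Over the 10 genes together, all 3 DSS colons lay above all 3 water colons in Parp1-/- mice. The mean of the 10 was 0.24, 0.36 and 0.55 on the Parp1-/- DSS arrays, against -0.39, -0.47 and -0.51 on the Parp1-/- water arrays. In wild-type mice it was -0.13, 0.97 and 0.51 on the DSS arrays, against -0.52, -0.21 and -0.28 on the water arrays. Of the 10 genes, 8, 8 and 10 were above 0 on the Parp1-/- DSS arrays and 1, 0 and 0 on the Parp1-/- water arrays. The wild-type counts were 5, 9 and 9 on the DSS arrays, against 2, 5 and 3 on the water arrays. Wild-type DSS 1, which is among the arrays that stand apart, was the lowest DSS array by this mean.

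**Figure D1:**
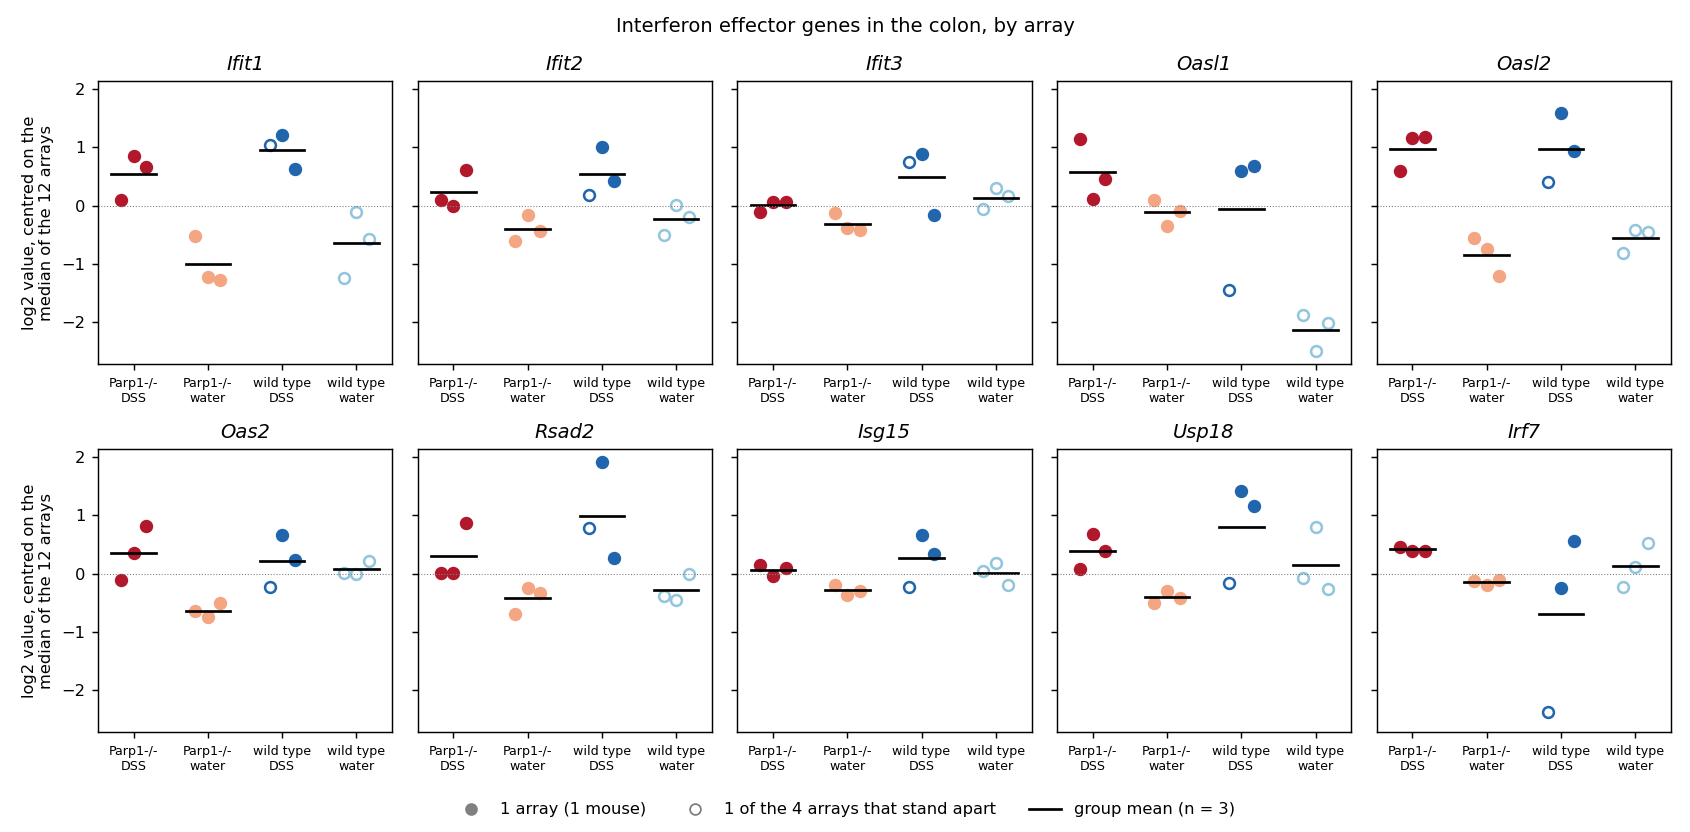
Each panel plots 1 of the 10 genes: the vertical axis is the centred log2 value, the points are single arrays (1 mouse each), open points are the 4 arrays that stand apart, and the black bar is the group mean (n = 3). Ifit1 and Oasl2 show DSS arrays above water arrays in both genotypes, Oasl1 lies near -2 in the wild-type water colons, and Irf7 has 1 low wild-type DSS array at -2.38.

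The IFIT proteins bind RNA and interfere with its translation, and Ifit1, which recognises viral RNA caps that lack a host methyl mark, had the clearest difference of the family. Ifit1 stood at 0.10, 0.85 and 0.66 in Parp1-/- DSS colons, against -0.52, -1.23 and -1.29 in Parp1-/- water colons. In wild-type colons it was 1.04, 1.22 and 0.63 with DSS, against -1.25, -0.10 and -0.57 with water. Every DSS array lay above every water array, and the 2 DSS groups overlapped each other. DSS minus water was 1.55 ± 0.32 (SE of the model, n = 3 each) in Parp1-/- mice, which is 2.93-fold if the scale is log2, and 1.61 ± 0.32 or 3.04-fold in wild-type mice. The limma adjusted p (Benjamini-Hochberg over all genes, called under 0.05) was 0.351 in Parp1-/- mice, not called, and 0.00845 in wild-type mice, called. Before adjustment the limma p-values were close, at 0.00049 and 0.00037. The adjusted p of a gene depends on all genes in its comparison, of which 2 were called in Parp1-/- mice and 2781 in wild-type mice. A call in only 1 genotype is therefore not a difference between the genotypes.

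Ifit2, a relative of Ifit1 that also binds RNA, had smaller differences. It stood at 0.10, -0.01 and 0.61 in Parp1-/- DSS colons, against -0.61, -0.16 and -0.44 in Parp1-/- water colons. Values in wild-type colons were 0.18, 1.01 and 0.42 with DSS, against -0.51, 0.01 and -0.20 with water. The groups did not overlap within either genotype, and Parp1-/- DSS 2 lay just below wild-type water 2. DSS minus water was 0.64 ± 0.25 in Parp1-/- mice and 0.77 ± 0.25 in wild-type mice (SE, n = 3 each), and neither was called by limma, with adjusted p-values of 1.0 and 0.0671.

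Ifit3, whose human counterpart binds and stabilises IFIT1, had the smallest DSS differences of the 3 IFIT genes among the 10. It stood at -0.11, 0.07 and 0.06 in Parp1-/- DSS colons, against -0.14, -0.39 and -0.42 in Parp1-/- water colons. Wild-type values were 0.75, 0.88 and -0.17 with DSS, against -0.06, 0.30 and 0.17 with water. The Parp1-/- groups were separated by a narrow gap, while wild-type DSS 3 lay below all 3 wild-type water arrays. The differences were 0.32 ± 0.25 in Parp1-/- mice and 0.35 ± 0.25 in wild-type mice (SE), and neither was called. The wild-type difference was 0.68 and called without wild-type DSS 3 (limma adjusted p of 0.0377), and 0.15 without wild-type DSS 2. Ifit3b, a near copy next to Ifit3 on the chromosome, differed by 0.06 ± 0.22 and -0.02 ± 0.22 with DSS in Parp1-/- and wild-type mice, and whether the probe sets tell the copies apart was not tested.

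The OAS family senses double-stranded RNA, and Oas2 makes the oligoadenylates that switch on RNase L. Oasl2, a mouse relative with a ubiquitin-like tail, had the largest DSS difference of the 10 genes in Parp1-/- mice. Oasl2 stood at 0.59, 1.16 and 1.18 in Parp1-/- DSS colons, against -0.56, -0.75 and -1.22 in Parp1-/- water colons. Wild-type values were 0.41, 1.59 and 0.94 with DSS, against -0.82, -0.41 and -0.46 with water. All 6 DSS arrays lay above all 6 water arrays, with a gap from -0.41 to 0.41. DSS minus water was 1.82 ± 0.30 in Parp1-/- mice, 3.52-fold, and 1.55 ± 0.30 in wild-type mice, 2.92-fold (SE, n = 3 each). By limma the Parp1-/- difference was not called, at an adjusted p of 0.125, and the wild-type difference was, at 0.00664. Before adjustment the limma p was lower in Parp1-/- mice, at 6.4e-05, than in wild-type mice, at 0.00026.

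Oas2 differed with DSS in Parp1-/- colons and hardly in wild-type colons. It stood at -0.10, 0.35 and 0.81 in Parp1-/- DSS colons, against -0.65, -0.75 and -0.51 in Parp1-/- water colons. In wild-type colons it was -0.23, 0.67 and 0.23 with DSS, against 0.00, -0.00 and 0.22 with water. The Parp1-/- groups did not overlap, and the wild-type DSS arrays spanned the water arrays. The differences were 0.99 ± 0.26 in Parp1-/- mice and 0.15 ± 0.26 in wild-type mice (SE), with limma adjusted p-values of 0.684 and 0.732. The difference between these 2 responses was 0.84 ± 0.36, with an unadjusted p of 0.0405 and an adjusted p of 0.262 in limma, and was not called.

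Oasl1, known in mice to repress translation of Irf7 mRNA, was set apart by its wild-type water values. It stood at 1.14, 0.11 and 0.46 in Parp1-/- DSS colons, against 0.09, -0.35 and -0.09 in Parp1-/- water colons. Wild-type values were -1.45, 0.60 and 0.68 with DSS, against -1.89, -2.51 and -2.02 with water. The 4 lowest arrays were those that stand apart. DSS minus water was 0.69 ± 0.49 in Parp1-/- mice, adjusted p of 1.0, and 2.08 ± 0.49 in wild-type mice, adjusted p of 0.0179 (limma). The wild-type call of Oasl1 was lost without wild-type water 2, wild-type DSS 2 or wild-type DSS 3. Oasl1 followed the housekeeping mean across the 12 arrays (r = 0.89) and not across the other 8 arrays (r = 0.04), a description of arrays that share tissue and chip.

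Rsad2 encodes viperin, which makes a nucleotide analogue that stops viral RNA chains. It stood at 0.01, 0.01 and 0.87 in Parp1-/- DSS colons, against -0.70, -0.24 and -0.33 in Parp1-/- water colons. Wild-type values were 0.79, 1.92 and 0.27 with DSS, against -0.40, -0.45 and -0.01 with water. All 6 DSS arrays lay above all 6 water arrays, with a narrow gap between the closest. DSS minus water was 0.72 ± 0.38 in Parp1-/- mice, adjusted p of 1.0, and 1.28 ± 0.38 in wild-type mice, adjusted p of 0.0470 (limma, SE, n = 3 each). The wild-type call was lost in 9 of the 12 fits that left out 1 array, with an adjusted p of up to 0.155 and a difference of 0.81 without wild-type DSS 2.

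Isg15 is a ubiquitin-like protein joined to other proteins after interferon treatment, and Usp18 removes it and restrains Ifnar2. Isg15 stood at 0.15, -0.04 and 0.09 in Parp1-/- DSS colons, against -0.19, -0.37 and -0.30 in Parp1-/- water colons. In wild-type colons Isg15 was -0.22, 0.66 and 0.34 with DSS, against 0.04, 0.18 and -0.19 with water. The Parp1-/- groups of Isg15 did not overlap and the wild-type groups did. Usp18 stood at 0.08, 0.68 and 0.39 in Parp1-/- DSS colons, against -0.51, -0.29 and -0.43 in Parp1-/- water colons. In wild-type colons Usp18 was -0.17, 1.42 and 1.16 with DSS, against -0.08, 0.79 and -0.27 with water. As for Isg15, the wild-type groups of Usp18 overlapped through wild-type DSS 1. DSS minus water was 0.35 ± 0.21 and 0.25 ± 0.21 for Isg15, and 0.79 ± 0.39 and 0.65 ± 0.39 for Usp18 (SE, Parp1-/- mice before wild-type mice in each pair). None of these 4 differences was called. Without wild-type DSS 1 the wild-type differences were called, at 0.49 for Isg15 (limma adjusted p of 0.0439) and 1.14 for Usp18 (0.0150), and without wild-type DSS 2 they were 0.049 and 0.34.

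Irf7 is the transcription factor that amplifies interferon alpha genes. Its values were tight in Parp1-/- mice and wide in wild-type mice. Irf7 stood at 0.46, 0.39 and 0.39 in Parp1-/- DSS colons, against -0.13, -0.19 and -0.11 in Parp1-/- water colons. Wild-type values were -2.38, -0.25 and 0.56 with DSS, against -0.24, 0.11 and 0.52 with water. Wild-type DSS 1 was lower than any other array by more than 2 units. The difference was 0.56 ± 0.55 in Parp1-/- mice and -0.82 ± 0.55 in wild-type mice (SE), and neither was called. The model shares 1 spread over the 4 groups, so the SE in Parp1-/- mice mostly follows the wild-type values. The SD was 0.042 and 0.044 in Parp1-/- DSS and water colons, which did not overlap, against 1.52 and 0.38 in the wild-type groups. With only the Parp1-/- groups fitted, the Irf7 difference was also not called. Without wild-type DSS 1 the wild-type difference was 0.02.

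Taken comparison by comparison, DSS minus water in Parp1-/- mice was above 0 for all 10 genes, with a median of 0.70 against 0.01 over all genes. All 10 were higher without overlap of the groups, as were 7.82% of all genes. None of the 10 was called by limma, where 0.00938% of genes, 2 of 21314, were called at all. At an unadjusted p under 0.05, 4 of the 10 passed, Ifit1, Ifit2, Oasl2 and Oas2, against 2.86% of all genes. With the 8 arrays that do not stand apart, Oasl2 differed by 1.82, adjusted p of 0.128, and Ifit1 by 1.55, adjusted p of 0.234. Without the muscle-rich arrays, which leaves 2 Parp1-/- DSS arrays and 1 Parp1-/- water array, Oasl2 differed by 1.73 and Ifit1 by 1.28. Without wild-type DSS 1, which enters through the shared spread, Oasl2 was called, where 22 of all 21314 genes were.

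DSS minus water in wild-type mice was called higher for 4 of the 10 genes, Ifit1, Oasl1, Oasl2 and Rsad2, against 8.89% of all genes called higher. It was above 0 for 9 of the 10, all but Irf7, with a median of 0.71 against -0.05 over all genes. Of the 10, 5 were higher without overlap of the groups, the called 4 and Ifit2, as were 11.4% of all genes. In the same comparison the median difference of the housekeeping genes was 1.21, and 9 of 16 were called higher. Their part in the result was not tested. Among the arrays that stand apart, wild-type DSS 1 lay above all 3 wild-type water arrays for 6 of the 10 genes, Ifit1, Ifit2, Ifit3, Oasl1, Oasl2 and Rsad2, against 25.8% of all genes. It lay below them for Oas2, Isg15 and Irf7 and among them for Usp18. Within those arrays Ifit1 was 1.69, Rsad2 1.07 and Oasl2 0.98 above the mean of the water arrays.

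The calls in wild-type mice depended on the setting. With the median of 1042 smell and pheromone receptor genes of each array as a covariate, a measure of the shift of the arrays that stand apart, Ifit1 kept its call (1.91, limma adjusted p of 0.0196), Oasl2 was 1.28 (adjusted p of 0.0645), Oasl1 0.85 and Rsad2 1.32, and Irf7 was called lower at -2.41. Within the groups this median varied most in wild-type DSS colons, at 0.38, 0.05 and -0.10. In every fit with the covariate the adjustment therefore rests mostly on wild-type DSS 1, where Irf7 was -2.38. Quantile normalization called none of the 10 and 232 of all genes, with Ifit1 at 1.12 and Oasl2 at 1.20. Without wild-type DSS 1, 7 of the 10 were called, without wild-type DSS 2 only Ifit1 and Oasl2 were, and without wild-type water 2 the count was 2. Over all 21314 genes the same fits called 6865, 1211 and 2782, against 2781 with all arrays. Averaged over the genotypes, a comparison built from the same arrays, 4 of the 10 were called higher, against 4.15% of all genes: Ifit1 by 1.58, Ifit2 by 0.70, Oasl1 by 1.38 and Oasl2 by 1.68. For Ifit1, Oasl2 and Rsad2 all DSS arrays lay above all water arrays, against 0.666% of all genes. In the average, Ifit1 and Oasl2 were called in each of the 12 fits that left out 1 array, while the call of Ifit2 was lost in 10 of them and that of Oasl1 in 11. These fits gave 2 to 8 calls, 8 without wild-type DSS 1, where 3132 of all 21314 genes were called. Without the muscle-rich arrays, which leaves 1 Parp1-/- water array, the median difference of the 10 was 0.84, against 0.71 with all arrays. With the receptor covariate Irf7 was called lower with DSS in the average, at -0.82, where 1639 of all genes were called, 676 of them lower.

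**Figure D2:**
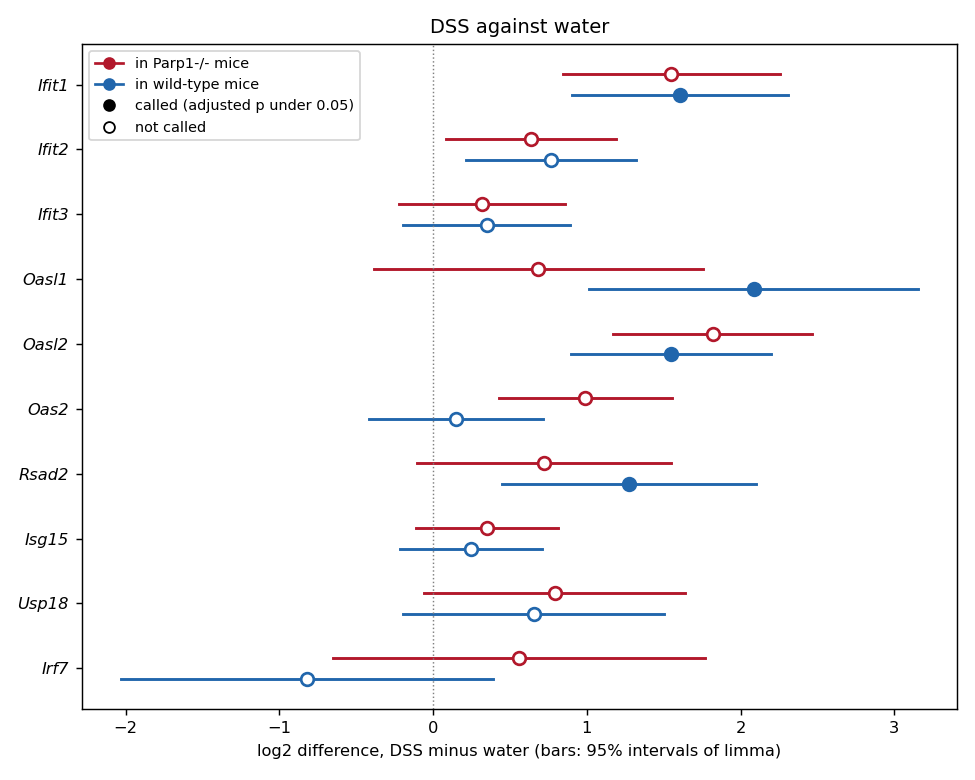
The horizontal axis is the log2 difference of DSS minus water for each of the 10 genes, in Parp1-/- mice (red, upper of each pair) and wild-type mice (blue, lower); points are limma estimates, bars their 95% intervals, and filled points passed an adjusted p of 0.05. Ifit1 and Oasl2 lie at about the same place in both genotypes, from 1.55 to 1.82, and Irf7 alone lies below 0 in wild-type mice.

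Between the genotypes in DSS, none of the 10 genes was called, nor was any of the 21314 genes (0% called by limma). At an unadjusted p under 0.05, 0 of the 10 passed, against 2.78% of all genes. The groups overlapped for all 10, where 6.55% of all genes did not overlap. Parp1-/- minus wild type was above 0 for 3 of the 10, with a median of -0.25 against 0.00 over all genes. The Oasl2 difference was -0.01, with a 95% interval from -0.65 to 0.64. For Ifit1 it was -0.43 (-1.13 to 0.28), for Rsad2 -0.70 (-1.52 to 0.13) and for Ifit3 -0.48 (-1.02 to 0.06). Ifit1 was -0.21 without Parp1-/- DSS 1, Rsad2 was -0.23 without wild-type DSS 2 and -1.06 without wild-type DSS 3, and Ifit3 was -0.28 and -0.81 without the same 2 arrays, none called. The Irf7 difference of 1.11 (-0.10 to 2.31) was 0.26 with the 8 arrays that do not stand apart. The interval of Oasl2 includes differences of 1.5-fold in either direction. Down-weighting of variable arrays called 4 of the 10 lower in Parp1-/- mice, Ifit3 at -0.79, Rsad2 at -1.45, Isg15 at -0.56 and Usp18 at -0.93. The same fit called 631 of all 21314 genes, 340 of them lower.

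Between the genotypes in water, Oasl1 was higher in Parp1-/- colons and was the only gene of the 10 called, by 2.02 ± 0.49 (SE, limma adjusted p of 0.0118), against 17.9% of all genes called higher and 31.6% in either direction. Its groups did not overlap, and 26.2% of all 21314 genes were higher without overlap. With the receptor covariate the Oasl1 difference was -0.05, not called, and Irf7 was called lower in Parp1-/- colons at -2.94 (limma adjusted p of 0.0108). That fit called 447 of all genes, 180 of them lower. The wild-type water group consists entirely of arrays that stand apart, so the state of the arrays and the genotype cannot be told apart in water. In this comparison 13 of 16 housekeeping genes were called higher, with a median of 1.57.

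For the other 9 genes the Parp1-/- water values were on average below the wild-type water values, and the median over the 10 was -0.29, against -0.07 over all genes. Ifit3, Oas2 and Usp18 were lower without overlap, as were 29.2% of all genes. Oas2 averaged -0.64 ± 0.12 in Parp1-/- water colons and 0.07 ± 0.13 in wild-type water colons (SD, n = 3 each), a difference of -0.71 ± 0.26 (SE) with a limma adjusted p of 0.0543. Oas2 was called when wild-type DSS 1 or 2 or Parp1-/- DSS 1 or 3 was left out. In this order the fits called 9384, 5824, 5791 and 5627 of all 21314 genes. Over all arrays left out in turn, the lowest limma adjusted p of Oas2 was 0.0250. Ifit3 was called without wild-type DSS 3, where 8051 of all genes were. Ifit3 differed by -0.45 ± 0.25 and Usp18 by -0.56 ± 0.39, neither called. Quantile normalization gave other calls: Ifit1 at -1.23, Oasl2 at -1.08 and Oas2 at -1.17 were lower and Oasl1, at 0.98, was not called. The same fit called 2219 of all genes, 446 of them lower.

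**Figure D3:**
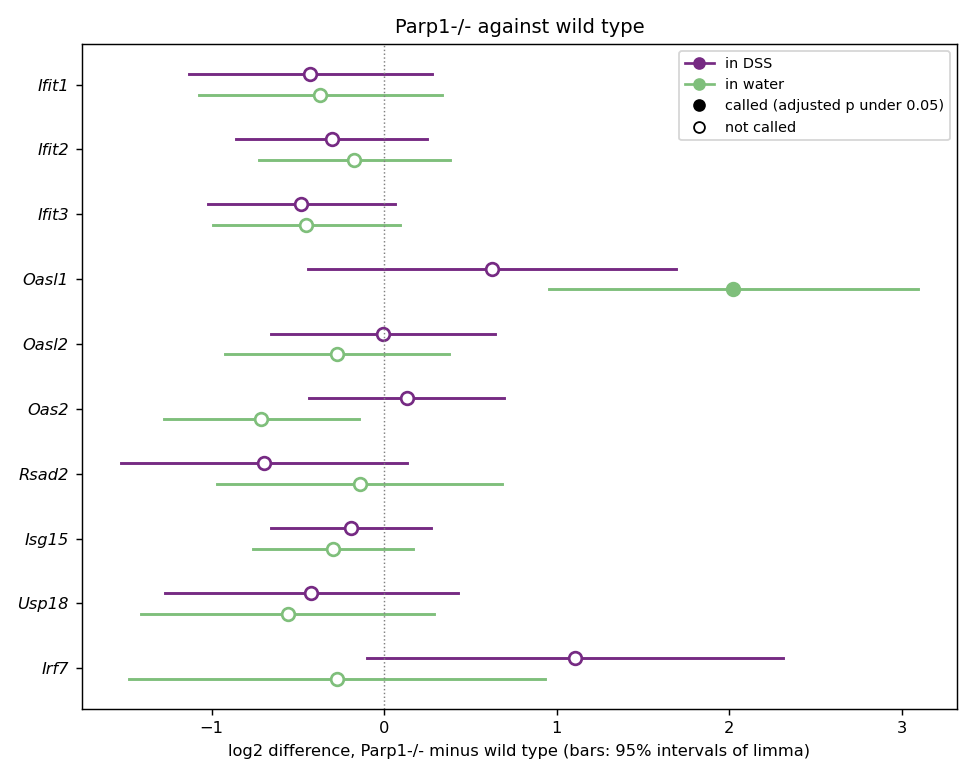
The horizontal axis is the log2 difference of Parp1-/- minus wild type for each of the 10 genes, in DSS (purple, upper of each pair) and in water (green, lower); points are limma estimates, bars their 95% intervals, and the filled point passed an adjusted p of 0.05. Only Oasl1 in water, at 2.02, is filled, and the interval of Oas2 in water also lies below 0.

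The test of whether the DSS response differed between the genotypes called 0 of the 10, against 2.54% of all genes. At an unadjusted p under 0.05, Oas2 alone passed, 1 of 10 against 17.5% of all genes. The largest differences of the responses were -1.40 ± 0.69 for Oasl1 and 1.38 ± 0.78 for Irf7 (SE), with limma adjusted p-values of 0.317 and 0.378. Without wild-type DSS 1, where 3178 of all genes were called, Oasl1 was called at -2.09 and Irf7 was 0.53. With the receptor covariate, an adjustment that rests mostly on wild-type DSS 1, Oasl1 was 0.0049 and Irf7 was called at 3.18. The covariate fit called 558 of all genes. For Ifit1 and Oasl2 the differences were -0.06 (95% interval -1.05 to 0.94) and 0.27 (-0.65 to 1.19). Since this test uses the same 12 arrays as the comparisons above, it is not separate evidence.

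**Figure D4:**
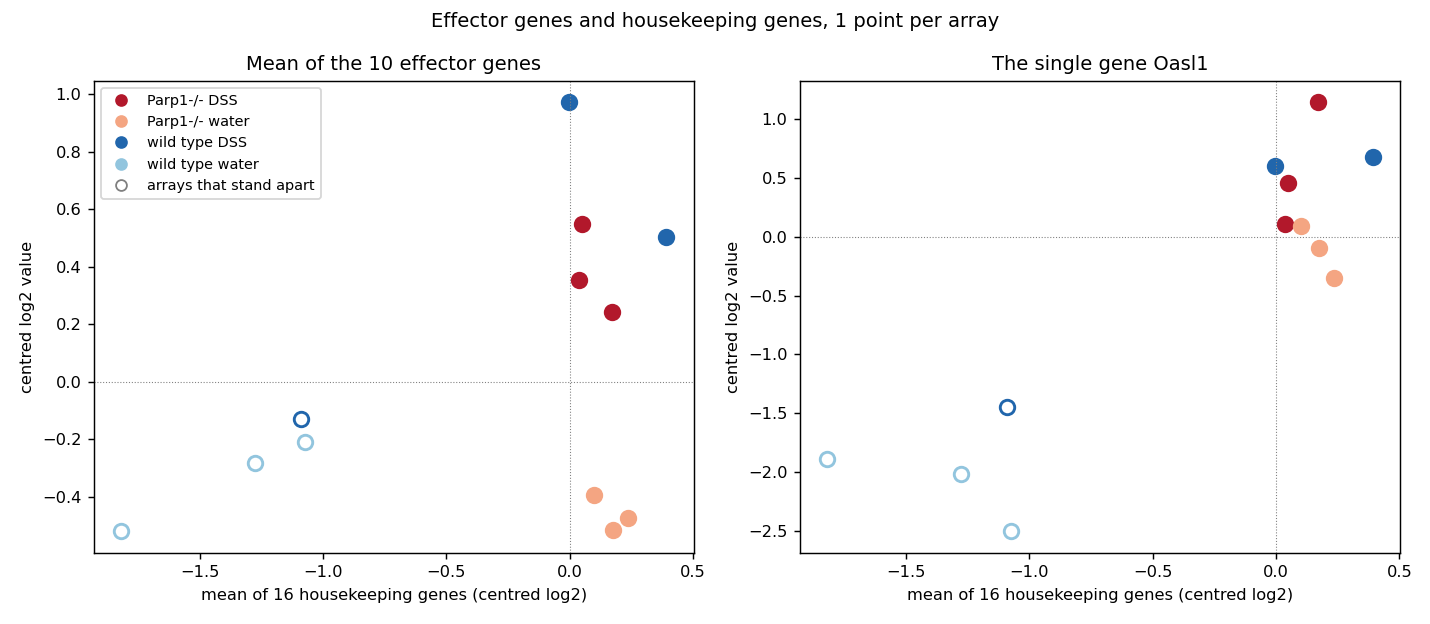
The horizontal axis is the mean of 16 housekeeping genes on each array and the vertical axis is the mean of the 10 interferon effector genes (left) or Oasl1 alone (right), in centred log2 values; each point is 1 array and open points are the 4 arrays that stand apart. Oasl1 is between -2.51 and -1.45 on those 4 and between -0.35 and 1.14 on the other 8, and the mean of the 10 separates DSS from water arrays among the filled points. No wild-type water array is among the filled points, so all filled water points are Parp1-/-.

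The median of the 45 pairwise correlations of the 10 genes was 0.60 over the 12 arrays, with 41 above 0, and 0.77 over the 8 arrays, with 43 above 0. Ifit1 and Oasl2 were the closest pair in both (r = 0.93 and 0.98), and Ifit3 and Irf7 the furthest (r = -0.50 and -0.15). These are descriptions of arrays that share treatment groups. Against the mean of the other 9, Oasl2 had r = 0.94, Ifit2 0.89 and Ifit1 0.79 over the 12 arrays, while Oasl1 had 0.40 and Irf7 0.07.

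Across all genes, those whose values ran closest to the mean of the 10 over the 12 arrays were Slfn4 (r = 0.97), a Schlafen family gene, Tnf (0.96), the inflammatory cytokine, and Zbp1 (0.96), a sensor of unusual nucleic acids that triggers cell death. The next were Tnfaip3, Rin2, Cd14, Cd274, Trim40, Ifi44l and Sema7a, with r from 0.94 down to 0.91. Over the 8 arrays the first 3 were Slfn4 (0.99), Tnf (0.99) and Nos2 (0.99), followed by Fas, Fkbp15, Parp14, Zbp1, Rela, Basp1 and Rtp4. Slfn4, Tnf and Zbp1 were in both sets of 10. Zbp1 stood at 0.74, 0.43 and 1.08 in Parp1-/- DSS colons, against -0.90, -0.89 and -1.09 in Parp1-/- water colons. In wild-type colons Zbp1 was -0.08, 1.54 and 1.20 with DSS, against -1.09, -0.07 and 0.07 with water, and these groups overlapped.

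Cell markers also differed between the groups. The mean of 10 neutrophil markers was 0.08 to 0.89 in Parp1-/- DSS colons, -0.95 to -0.37 in Parp1-/- water colons, 0.49 to 1.35 in wild-type DSS colons and -0.35 to -0.21 in wild-type water colons. For 11 macrophage and monocyte markers it was 0.27 to 0.57, -0.32 to 0.14, -0.07 to 0.85 and -0.71 to -0.14 in the same order of groups. In wild-type mice 4 of the 10 neutrophil and 4 of the 11 macrophage and monocyte markers were called higher with DSS, against 8.89% of all genes. In Parp1-/- mice 0 of either list were called, where 2 of all 21314 genes were. Higher without overlap there were 8 of the 10 neutrophil and 3 of the 11 macrophage and monocyte markers, as were 7.82% of all genes. Lower without overlap was 1 neutrophil marker, as were 1001 of all genes. The neutrophil markers had a median difference of 0.82 in Parp1-/- mice, against 1.07 in wild-type mice. None of these markers was called for the difference of the responses. With DSS in wild-type mice, 8 of 12 epithelium markers and 9 of 16 housekeeping genes were called higher too. Their medians were 1.66 and 1.21, against 1.07 for the neutrophil and 1.03 for the macrophage and monocyte markers. The 9 measured markers of plasmacytoid dendritic cells, a major source of interferon alpha, had means between -0.18 and 0.30 over all 12 arrays, with 1 called higher and 1 lower in wild-type mice. Which markers are at 0 cannot be read from centred values. The part of these cells in the effector genes' differences was not tested, and more cells of a type and more RNA per cell cannot be told apart in whole colon.

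The ligands themselves showed no DSS difference that passed the test. Of 18 interferon ligand genes measured, 0 were called by limma in either genotype, and 0 in Parp1-/- mice and 3 in wild-type mice had an unadjusted p under 0.05. Of all 21314 genes, 609 in Parp1-/- mice and 6421 in wild-type mice did. Ifnb1, which encodes interferon beta, differed by -0.01 ± 0.17 in Parp1-/- mice and -0.15 ± 0.17 in wild-type mice (SE). Of the interferon lambda genes, Ifnl2 differed by 0.32 ± 0.27 and 0.74 ± 0.27 in Parp1-/- and wild-type mice, and Ifnl3 by 0.89 ± 0.37 in wild-type mice. None of these differences was called. In Parp1-/- mice Ifnl3 averaged 0.13 with DSS and 0.12 with water.

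Among 11 receptor and transducer genes, 0 were called in Parp1-/- mice, where 2 of all 21314 genes were. In wild-type mice 4 were called higher: Jak2 (2.09 ± 0.21), Ifngr1 (1.96 ± 0.31), Tyk2 (1.21 ± 0.20) and Irf9 (1.17 ± 0.34). There 8.89% of all genes and 9 of 16 housekeeping genes were called higher. Irf9 differed by 0.67 ± 0.34 in Parp1-/- mice. The receptor chains Ifnar1 and Ifnar2 differed by -0.22 ± 0.39 and 0.17 ± 0.33 in Parp1-/- mice, and by 1.11 ± 0.39 and 0.66 ± 0.33 in wild-type mice, and neither was called. Stat2 differed by 0.66 ± 0.59 and 1.05 ± 0.59 in Parp1-/- and wild-type mice. The list median of 0.31 in Parp1-/- mice and 1.11 in wild-type mice stands beside the housekeeping medians of 0.00 and 1.21.

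Among 14 nucleic acid sensors and adaptors, 0 were called in Parp1-/- mice and 2 were called higher in wild-type mice, Tlr3 (2.25 ± 0.36), the endosomal receptor for double-stranded RNA, and Myd88 (2.03 ± 0.27), the adaptor of most other Toll-like receptors, against 8.89% of all genes and 9 of 16 housekeeping genes called higher. Zbp1 had the largest difference of this list in Parp1-/- mice, 1.71 ± 0.40, not called. The negative regulators gave 0 of 9 called in Parp1-/- mice and 3 called higher in wild-type mice, Irf2 (2.37 ± 0.27), Pias1 (2.02 ± 0.19) and Usp25 (1.38 ± 0.27), beside the same shares of all genes and housekeeping genes. Irf2 stood at -2.31, -1.83 and -2.77 and Pias1 at -2.41, -2.13 and -2.08 in wild-type water colons, all arrays that stand apart, and both were between -0.62 and 0.55 on the other 9 arrays. Socs3, which blocks Jak kinases, differed by 0.65 ± 0.17 in Parp1-/- mice and was not called there.

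Of 38 other interferon-stimulated effectors, 34 were above 0 in Parp1-/- mice, against 53.1% of all genes, with 0 called and a median of 0.35. In wild-type mice 32 were above 0, against 45.8% of all genes, and 9 were called higher, against 8.89%, and 0 lower, with a median of 0.59. Ifit1bl1, a neighbour and relative of Ifit1, differed by 3.01 ± 0.55 in Parp1-/- mice (limma adjusted p of 0.172) and rose by 2.73 ± 0.55 in wild-type mice (adjusted p of 0.00830). It stood at 1.18, 1.04 and 1.71 in Parp1-/- DSS colons, against -0.45, -1.82 and -2.85 in Parp1-/- water colons. Wild-type values of Ifit1bl1 were 0.45, 1.33 and 1.0 with DSS, against -0.89, -2.32 and -2.21 with water, so all DSS arrays lay above all water arrays. The other called effectors of largest change in wild-type mice were Ifi205 (3.70 ± 0.53), Samhd1 (2.23 ± 0.38), which degrades nucleotides, and Lgals3bp (1.63 ± 0.22). Mx1 and Mx2, dynamin-like antiviral proteins, differed by 0.24 ± 0.26 and 0.15 ± 0.27 in Parp1-/- mice and by 0.26 ± 0.26 and 0.28 ± 0.27 in wild-type mice, not called.

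The DSS differences of all 13 measured targets of interferon gamma were above 0 in both genotypes, against 53.1% of all genes in Parp1-/- mice and 45.8% in wild-type mice. In Parp1-/- mice 0 were called, where 2 of all 21314 genes were. In wild-type mice 3 were called higher, the chemokines Cxcl10 (3.42 ± 0.76) and Cxcl9 (3.40 ± 0.90) and the GTPase Iigp1 (1.64 ± 0.43). There 8.89% of all genes and 9 of 16 housekeeping genes were called higher. Cxcl10 stood at 0.37, 0.03 and 1.49 in Parp1-/- DSS colons, against -1.11, -1.35 and -1.27 in Parp1-/- water colons. In wild-type colons Cxcl10 was 3.15, 4.45 and 0.63 with DSS, against -0.03, -0.74 and -1.26 with water. Parp1-/- minus wild type was above 0 for 1 of the 13 targets in DSS, against 50.4% of all genes, with a median of -0.49, and for 1 of the 13 in water, against 46.5%, with a median of -0.23, and 0 were called in either. The mean of the 13 was 0.32, 0.0090 and 0.59 in Parp1-/- DSS colons, against 0.58, 1.93 and 0.57 in wild-type DSS colons, so the groups overlapped and wild-type DSS 2 was the highest.

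**Figure D5:**
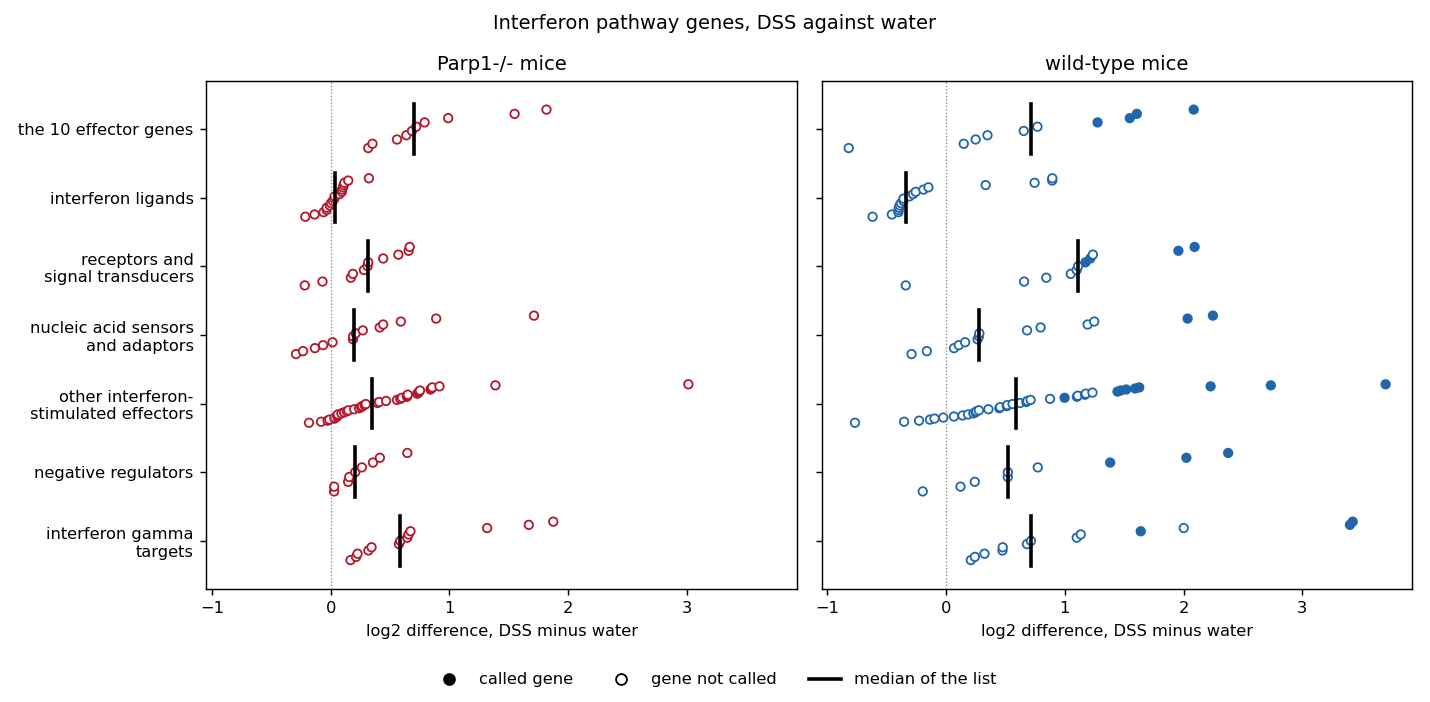
The horizontal axis is the log2 difference of DSS minus water, in Parp1-/- mice (left) and wild-type mice (right), for the 10 effector genes and for 6 other lists of the interferon pathway; each point is 1 gene, filled points passed an adjusted p of 0.05 and black bars are list medians. The 10 effector genes have medians of 0.70 and 0.71, the ligands 0.03 and -0.33, and the receptors and transducers 0.31 and 1.11.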

How the data were processed

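Whole-colon total RNA, labelled with biotin, was measured on Affymetrix arrays, according to the labels. The deposited table held values of 31693 probe sets on 12 arrays, treated here as log2. The sources used here do not name the authors' software or normalization. The 12 values of every probe set had a median of 0 to within 5e-07, so they were centred per probe set. The log base and the direction stay unknown, and base 2 was assumed, with more RNA giving larger values. Column medians were 0.000797, -0.0204 and -0.00781 in Parp1-/- DSS arrays, -0.00315, -0.0310 and -0.0438 in Parp1-/- water arrays, 0.0784, 0.000299 and -0.00104 in wild-type DSS arrays and 0.0576, 0.0999 and 0.0946 in wild-type water arrays. No background signal was available here, so no dim probe set was left out, and the number of arrays limits the precision.

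Probe sets were named from the platform's GEO annotation: 22586 had 1 symbol, 1756 several and 7351 none. Values of a gene's probe sets with 1 symbol were averaged, giving 21314 genes. Group means were fitted with limma 3.58.1 (R 4.3.3) in 1 model of 4 groups over 12 arrays, with Benjamini-Hochberg adjustment over all genes. The model was tested on simulated data. Promoters are RefSeq's, build GRCm38.p6, whose gene table also served for neighbouring genes. Python 3.11.15 with pandas 2.3.3 read the tables.

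Mice were separate animals, and replicate numbers only name them in accession order. The members and lists were chosen with earlier results of these data known, as were the arrays set apart, the housekeeping genes and the receptor covariate. Named genes were all 10 members, the key pathway nodes Ifnb1, Ifnar1, Ifnar2, Stat2, Irf9, Mx1 and Mx2 where measured, per list up to 4 called genes by size of change (the 2 of lowest p where none was called), and the 10 genes most like the members by Pearson's r. Ifit3b and the values per array of Zbp1, Ifit1bl1 and Cxcl10 were added after their values were seen. The alternatives were quantile normalization, equal array medians, trend and robust options, array weights (gene-by-gene method), the receptor covariate, single probe sets, only the groups compared, the 8 other arrays, leaving out each array and an adjusted p under 0.01. The fit without the muscle-rich arrays was chosen after seeing the data. Some pathway genes are not reported here.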

Additional observations from a re-analysis of the deposited data

How the results depend on the processing

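No paired analysis was possible because the labels give no replicate numbers that groups share, so no replicate block could be fitted. Over the 10 genes and 6 comparisons, other settings gave the same direction and side of the threshold in 386 of 470 results, with 22 losing the call, 32 gaining it and 30 changing direction. Leaving out each array did so in 645 of 720, with 33 losing the call, 17 gaining it and 25 changing direction. No result that changed direction was called in the changed fit. The cause of these changes was not tested. The default method of array weights did not converge and gave an extreme weight to 1 array, so the gene-by-gene method was used, a choice made after seeing this.

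Calls of DSS against water in Parp1-/- mice, 0 of 10, were 3 with quantile normalization and 5 with array weights. With the receptor covariate there was 1. Over all 21314 genes these fits called 85, 1638 and 26. In wild-type mice the 4 calls were 0 with quantile normalization, 7 with array weights and 2 with the covariate. They were 1 with only the groups compared and 2 at an adjusted p under 0.01. In this order the settings called 232, 5980, 2224, 641 and 1025 of all genes. Averaged over genotypes the 4 calls were 9 with array weights and 2 at an adjusted p under 0.01. Over all genes these settings called 4509 and 373. Without the muscle-rich arrays the median difference of the 10 in this average was 0.84. That fit leaves 1 Parp1-/- water array, so whether the 4 calls hold there is not judged. Between genotypes in DSS the 0 calls were 4 with array weights, where 631 of all genes were called. In water the 1 call was 3 with quantile normalization, 2 with trend and robust options and 2 with only the groups compared. It was 0 at an adjusted p under 0.01. In this order the settings called 2219, 7296, 7081 and 2429 of all genes. Whether the call in water holds without the muscle-rich arrays is not judged either. For the difference of responses the 0 calls were 1 with array weights and 1 with the covariate, where 5463 and 558 of all genes were called. Leaving out each array gave 0 to 1, 2 to 7, 2 to 8, 0 to 0, 1 to 2 and 0 to 1 calls in these 6 comparisons. Over all genes the same fits called 1 to 22, 1211 to 6865, 511 to 3132, 0 to 2, 2948 to 9384 and 177 to 3178. In wild-type mice 7 of the 10 were called without wild-type DSS 1, where 6865 of all genes were, and 2 without wild-type DSS 2, where 1211 were. Over all genes, the called 2, 2781, 990, 0, 6725 and 542 ranged with the settings other than leaving out arrays over 0 to 1638, 232 to 5980, 9 to 4509, 0 to 631, 147 to 9987 and 0 to 5463.

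With the receptor covariate the wild-type DSS differences of Oas2, Isg15 and Usp18 were -0.11, -0.11 and -0.12, the genotype differences in DSS of Oasl1 and Oas2 -0.049 and -0.0083, those in water of Ifit1, Ifit3 and Oasl1 0.14, 0.27 and -0.054, and the differences of responses of Ifit2 and Oasl1 0.17 and 0.0049. Quantile normalization gave Irf7 0.15 in the average, Oasl2 0.28 between genotypes in DSS, and differences of responses of 1.15 for Ifit1, 0.49 for Ifit2, 0.41 for Ifit3 and 0.25 for Rsad2. Array weights gave Irf7 0.043 in the average, Oasl1 -0.078 and Oas2 -0.20 between genotypes in DSS, and differences of responses of 0.13 for Ifit1, -0.25 for Isg15 and -0.35 for Usp18. Equal medians gave Oasl2 0.030 between genotypes in DSS. The 8 other arrays gave Oasl1 -0.071 and Oas2 -0.096 there. Without the muscle-rich arrays Oasl2 was 0.19 there, Ifit1 and Oasl2 were 0.12 and 0.0020 in water, and the differences of responses were 0.14 for Ifit2 and -0.036 for Isg15.

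Leaving out each array, the wild-type DSS differences ran from -0.073 to 0.37 for Oas2 and from -1.44 to 0.025 for Irf7, and the average for Irf7 from -0.44 to 0.29. Between genotypes in DSS the ranges were -0.071 to 0.99 for Oasl1, -0.29 to 0.30 for Oasl2, -0.099 to 0.36 for Oas2 and -0.43 to 0.0066 for Isg15. The differences of responses ran from -0.33 to 0.25 for Ifit1, -0.32 to 0.11 for Ifit2, -0.36 to 0.17 for Ifit3, -0.013 to 0.57 for Oasl2, -0.14 to 0.30 for Isg15 and -0.35 to 0.45 for Usp18.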
